A study of Mus musculus with 16 samples.

Results

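The inhibin, activin, follistatin and anti-Müllerian hormone (AMH) system was followed through 9 genes, chosen by name and matched by gene symbol. These are *Inha*, *Inhba*, *Inhbb*, *Fst*, *Amh*, *Amhr2*, *Acvr1b*, *Acvr2a* and *Acvr2b*, all protein coding, and all 9 were found among the 55359 genes counted. The study sequenced polyA RNA from whole ovary and whole kidney of wild-type CBAF1 female mice aged 21 days. The treated groups were injected intraperitoneally with PT-2385 at 7.5 mg/kg in saline every 12 h for 4 days, and the vehicle groups with 5% DMSO in saline on the same schedule. All 4 groups, the controls included, also received 5 IU PMSG for 48 h and then 5 IU hCG, and organs were taken 13 h after hCG, a time the series describes as after ovulation. Each group (ovary vehicle, ovary PT-2385, kidney vehicle, kidney PT-2385) held 4 libraries. The labels do not say that each library came from a separate mouse, so the p-values measure the spread between these libraries.

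PT-2385 is a small molecule that blocks HIF-2α, a transcription factor of the hypoxia response, from pairing with its partner ARNT. PMSG and hCG are gonadotropins used to drive follicle growth and then ovulation. Inhibins are dimers of the α subunit encoded by *Inha* with a β subunit encoded by *Inhba* or *Inhbb*, while activins are dimers of the β subunits alone, so the same β subunit transcripts serve opposing hormones. Activins bind a type II receptor (*Acvr2a*, *Acvr2b*) that recruits the type I receptor *Acvr1b* and passes the signal to Smad2 and Smad3, and follistatin (*Fst*) binds activin and keeps it from its receptors. Granulosa cells, the somatic cells around the oocyte, make inhibins and activins. They also make AMH, which is known from growing follicles and signals through its own type II receptor, *Amhr2*.

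The 250 bases upstream of the start of the 3 inhibin subunit genes are shown. These genes had the largest ovary estimates of the 9 for PT-2385 against vehicle, although none passed the test. The motifs searched include ACGTG and GCGTG because the drug acts on a factor with this recognition core. The sequences are RefSeq's for build GRCm38.p6, read 5′ to 3′ on the gene's strand: *Inha* at chr1:75507359-75507608 (plus strand), *Inhba* at chr13:16011601-16011850 (plus strand) and *Inhbb* at chr1:119422249-119422498 (minus strand). Capitals mark a match to GCGTG, here in its reverse complement CACGC, or to AGGTCA, an element that nuclear receptors bind.
Inha: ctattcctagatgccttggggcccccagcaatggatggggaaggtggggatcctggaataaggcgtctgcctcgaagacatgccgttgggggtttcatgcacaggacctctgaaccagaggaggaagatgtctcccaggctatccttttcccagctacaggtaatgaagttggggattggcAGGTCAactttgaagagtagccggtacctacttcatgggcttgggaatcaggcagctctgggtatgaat
Inhba: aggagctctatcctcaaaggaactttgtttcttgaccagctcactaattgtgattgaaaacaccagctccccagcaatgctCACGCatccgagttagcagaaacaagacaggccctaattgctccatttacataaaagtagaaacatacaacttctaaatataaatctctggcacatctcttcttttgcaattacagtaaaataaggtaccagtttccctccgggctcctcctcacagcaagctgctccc
Inhbb: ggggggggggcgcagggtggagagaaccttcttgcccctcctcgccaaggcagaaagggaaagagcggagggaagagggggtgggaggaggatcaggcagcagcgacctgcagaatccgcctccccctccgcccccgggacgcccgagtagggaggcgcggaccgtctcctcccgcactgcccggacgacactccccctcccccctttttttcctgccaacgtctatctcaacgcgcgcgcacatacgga
The *Inhba* window held 1 GCGTG, on the minus strand 169 bases upstream of the start, a match that 28.2% of the 32851 windows in the table contained on either strand. The *Inha* window held 1 AGGTCA, 69 bases upstream, found in 14.0% of all windows. The *Inhbb* window held none of the 4 motifs searched, which also included ACGTG (16.6% of windows) and the cAMP response element TGACGTCA (1.55% of windows, and none of the 7 windows matched to the 9 genes). The ACGTG and GCGTG searches share the letters CGTG, and TGACGTCA reads the same on both strands. The GC content of the *Inhbb* window, 68.0%, compared with 43.2% for *Inhba*, and the median window had 52.4%. Among the other windows, *Acvr1b* held both ACGTG and GCGTG, *Acvr2a* and *Acvr2b* held GCGTG, and *Amhr2* held AGGTCA. A match describes letters and not binding. The table had no window for *Fst* or *Amh*.

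In the files' own build (GRCm39), *Inha* spans bases 75483721 to 75487010 of chromosome 1 (plus strand) and *Inhbb* bases 119343195 to 119349978 of the same chromosome (minus strand). *Inhba* lies on chromosome 13 from 16186436 to 16206206 (plus strand), and *Fst* on chromosome 13 from 114588826 to 114595487 (minus strand). *Amh* spans 80641077 to 80643482 of chromosome 10 (plus strand). *Amhr2* (102353802 to 102363068) and *Acvr1b* (101071948 to 101111565) are both on the plus strand of chromosome 15. *Acvr2a* lies on chromosome 2 from 48704121 to 48793281 and *Acvr2b* on chromosome 9 from 119231184 to 119264061, both on the plus strand. Read pairs were counted over all exons of a gene. Counting used no strand option, and 4.06% of the exon bases of *Fst* were shared with a gene on the opposite strand, as were 7.84% of those of *Acvr2a*, while the other 7 genes shared none.

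Assigned read pairs ran from 12689770 to 43295974 per library. The labelled organs were checked with marker lists. In all 8 kidney libraries 3 of 10 granulosa cell markers (*Foxl2*, *Fshr* and *Cyp19a1*) and 4 of 10 oocyte markers (*Zp3*, *Oosp1*, *Figla* and *Nlrp5*) were at 0 counts. The other 7 and 6 had counts there, *Gatm* the most, with means of 1390 (vehicle) and 1551 CPM (PT-2385). *Kap*, an abundant kidney transcript, reached 11250 to 14084 CPM in kidney. Ovary libraries held *Aqp2*, a kidney marker, at 15.9 to 24.2 CPM in vehicle and 32.3 to 33.9 CPM with PT-2385 (edgeR adjusted p = 0.0554, Benjamini-Hochberg). Ovary groups did not overlap for 6.95% of all genes. The 8 kidney markers summed to 25.0 to 73.9 CPM in ovary vehicle and 35.3 to 36.7 CPM in ovary PT-2385. The 6 adrenal markers summed to 96.6 to 135 CPM and 129 to 158 CPM in these groups. The part of other tissue in the ovary results was not tested. CPM are counts over 1e6 counts of the library, after scaling of library sizes by trimmed means (TMM). Ovary vehicle replicate 1 stood apart with 32.5 CPM of *Kap* against at most 0.783 in the other ovary libraries. Ovary vehicle replicate 3 had the lowest mitochondrial share of the ovary libraries (2.33%, range up to 4.45%), and its file carries another number than its label. Results below that rest on 1 library are given with and without it.

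In ovary, the α subunit was by far the most abundant of the system. *Inha* reached 656 ± 105 CPM per kb of exon (SD, n = 8), rank 31 of the 18855 protein-coding genes with counts. CPM per kb divides the CPM by the gene's exon length so that genes can be compared. Next came 4 genes at closely similar levels: *Amh* at 41.8 ± 13.4, *Fst* at 39.8 ± 6.12, *Inhba* at 39.3 ± 17.1 and *Inhbb* at 38.4 ± 14.2 CPM per kb (SD, n = 8 each). These 4 neighbours did not differ beyond their spread, and the mean of *Amhr2*, 28.2 ± 4.09, lay within the ranges of *Amh*, *Inhba* and *Inhbb*. The activin receptors were lower still, with *Acvr1b* at 9.02 ± 0.647, *Acvr2a* at 5.85 ± 0.286 and *Acvr2b* at 1.77 ± 0.185 CPM per kb, and these 3 ranges did not overlap each other or those of the genes above them.

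Kidney showed another order, with *Acvr1b* and *Acvr2a* on top. The type I receptor *Acvr1b* led at 18.1 ± 0.889 CPM per kb, followed by *Acvr2a* at 6.60 ± 0.484, *Fst* at 4.12 ± 0.616, *Inha* at 3.27 ± 0.493 and *Acvr2b* at 1.99 ± 0.436 (SD, n = 8 each). The libraries of *Fst* and *Inha* overlapped in this order, as did those of *Inhba* and *Amhr2*. The β subunits were at 0.587 ± 0.118 (*Inhbb*) and 0.284 ± 0.0475 (*Inhba*). *Amhr2* at 0.183 ± 0.0713 and *Amh* at 0.179 ± 0.0659 CPM per kb did not differ beyond their spread, with only 4 to 13 and 2 to 11 counts per library.

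**Figure D1:**
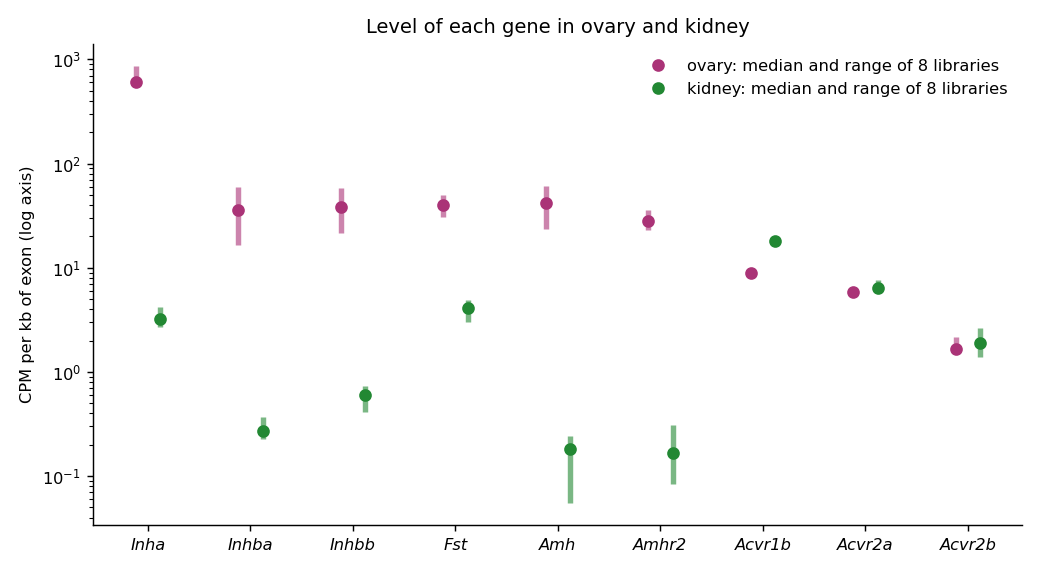
Level of each of the 9 genes in ovary and kidney, in CPM per kb of exon on a log axis, as the median (point) and range (bar) of 8 libraries per organ, both treatments together. The 3 inhibin subunits, Fst, Amh and Amhr2 are higher in every ovary library than in any kidney library, Acvr1b is higher in kidney, and the ranges of Acvr2a and Acvr2b overlap.

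Put side by side, the ligands, *Fst* and the AMH pair were higher in ovary while the activin receptors were not. Mean levels in ovary were 234 times those in kidney for *Amh*, 201 times for *Inha*, 154 times for *Amhr2*, 138 times for *Inhba*, 65.5 times for *Inhbb* and 9.67 times for *Fst*. For these 6 genes all 8 ovary libraries lay above all 8 kidney libraries, as did 34% of all genes. *Acvr1b* was 2.00 times higher in kidney, where all its libraries lay above all ovary libraries, as did 34.8% of all genes. The organs overlapped for *Acvr2a* and *Acvr2b*, whose direction depended on the scaling: *Acvr2a* averaged 33.3 CPM in ovary and 37.5 in kidney after TMM, but 35.8 and 34.8 without it, and *Acvr2b* 6.31 and 7.12 after TMM, but 6.78 and 6.61 without it. Dropping TMM moved the ovary to kidney ratio by 0.21 on the log2 scale (median of the 9 genes). The organs were extracted differently, ovary on Monarch columns and kidney in Trizol, so organ and RNA isolation cannot be told apart and no test was made of these levels.

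The question put to each organ was whether PT-2385 changed the system. In ovary, none of the 9 genes passed the test (edgeR's quasi-likelihood test with Benjamini-Hochberg adjustment over 18125 genes, threshold 0.05), where 0.0497% of all genes tested, 9 genes in all, did. At an unadjusted p under 0.05 there was 1 of the 9, against 13.2% of all genes. The alternative tools also called 0 of the 9, DESeq2 while calling 322 genes in all and limma-voom while calling 4. In no case were the 4 PT-2385 libraries entirely above or below the 4 vehicle libraries, an outcome seen for 6.95% of all genes. The estimates ranged from -0.15 to 0.63 on the log2 scale, PT-2385 minus vehicle, with a median of 0.04 against -0.0030 for all genes. In whole organs, fewer cells of a type and less RNA per cell cannot be told apart.

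**Figure D2:**
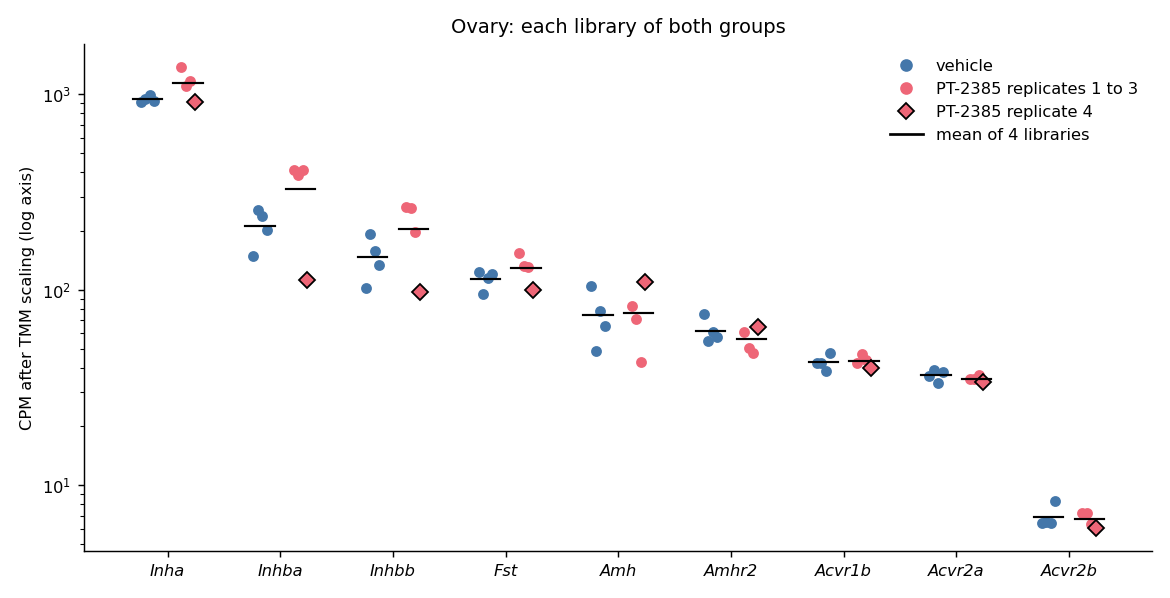
CPM of each gene in every ovary library, on a log axis, with vehicle in blue, PT-2385 in red and a bar for the mean of 4 libraries. PT-2385 replicates 1 to 3 lie above all vehicle libraries for Inha, Inhba, Inhbb and Fst, while PT-2385 replicate 4 (diamond) lies at 112 CPM for Inhba and 97.8 CPM for Inhbb, below every vehicle library.

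*Inha* was at 912, 942, 989 and 923 CPM in vehicle replicates 1 to 4 and at 1380, 1101, 1173 and 910 CPM in PT-2385 replicates 1 to 4. Treated replicates 1 to 3 lay above all controls, and treated replicate 4 lay just below them, so the groups overlapped. The log2 fold change was 0.28 (SE 0.113, 95% interval 0.032 to 0.52), with an unadjusted p of 0.0297 and an adjusted p of 0.331 (edgeR, Benjamini-Hochberg).

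*Inhba* encodes the βA subunit shared by activin A and inhibin A. It was at 149, 257, 240 and 203 CPM in the controls and at 408, 384, 410 and 112 CPM after PT-2385. Treated replicates 1 to 3 exceeded every control and lay close together, whereas treated replicate 4 was the lowest of the 8 ovary libraries. The log2 fold change was 0.63 (SE 0.403, 95% interval -0.32 to 1.57, edgeR adjusted p = 0.543 with Benjamini-Hochberg adjustment). Its interval was the widest of the 9 genes.

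*Inhbb*, the βB subunit, was at 102, 192, 157 and 134 CPM in the controls and at 266, 262, 197 and 97.8 CPM after PT-2385. The layout was that of *Inhba*, with treated replicates 1 to 3 above all controls, although replicate 3 only narrowly, and treated replicate 4 below them. The log2 fold change was 0.49 (SE 0.334, 95% interval -0.29 to 1.27, edgeR adjusted p = 0.569 with Benjamini-Hochberg adjustment).

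*Fst*, the activin antagonist, was at 124, 94.96, 115 and 120 CPM in the controls and at 153, 132, 131 and 100 CPM after PT-2385. Treated replicates 1 to 3 again exceeded all controls, and replicate 4 lay within the control range. The log2 fold change was 0.18 (SE 0.120, 95% interval -0.078 to 0.45, edgeR adjusted p = 0.532 with Benjamini-Hochberg adjustment).

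*Amh* had another pattern. It was at 105, 48.4, 78.1 and 65.1 CPM in the controls and at 82.1, 70.8, 42.5 and 110 CPM after PT-2385, so that treated replicate 4 was the highest of all 8 libraries and treated replicate 3 the lowest. The log2 fold change was 0.04 (SE 0.330, 95% interval -0.73 to 0.82, edgeR adjusted p = 0.973 with Benjamini-Hochberg adjustment), an interval too wide to bound the change within 1.5-fold in either direction. *Amhr2*, the AMH receptor, was at 74.8, 54.7, 60.7 and 57.2 CPM in the controls and at 61.2, 50.6, 47.6 and 64.2 CPM after PT-2385, with a log2 fold change of -0.15 (SE 0.115, 95% interval -0.40 to 0.11, adjusted p = 0.612).

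The activin receptors were the steadiest genes of the system. *Acvr1b* ran from 38.5 to 47.6 CPM, *Acvr2a* from 33.5 to 38.7 CPM and *Acvr2b* from 6.05 to 8.27 CPM across the 8 ovary libraries. Their log2 fold changes were 0.01 (95% interval -0.15 to 0.18), -0.06 (-0.21 to 0.083) and -0.05 (-0.32 to 0.22), with adjusted p of 0.957, 0.733 and 0.913 (edgeR, Benjamini-Hochberg).

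**Figure D3:**
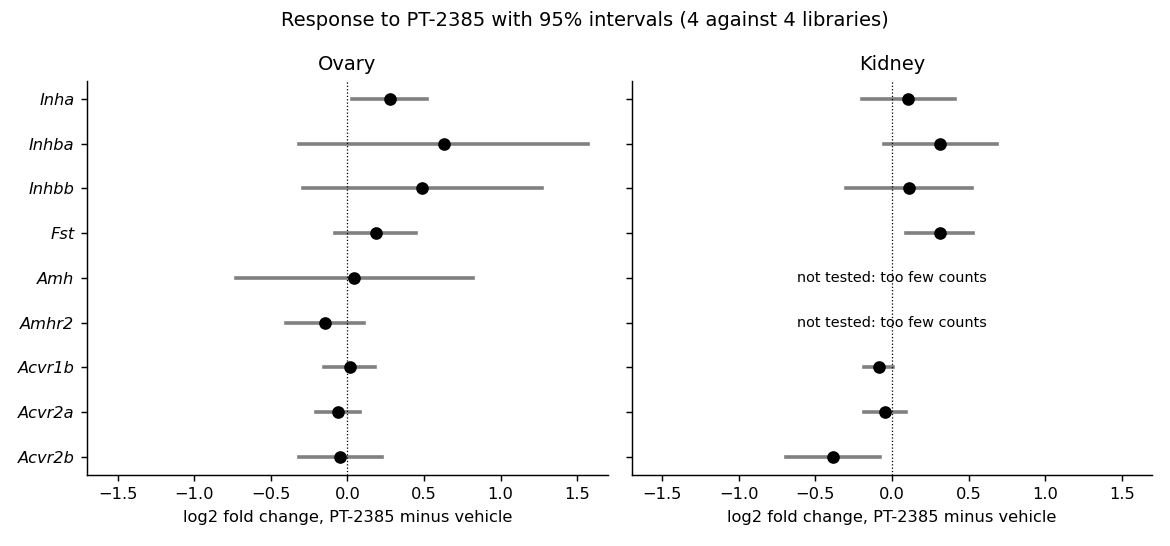
log2 fold change, PT-2385 minus vehicle, for each gene in ovary (left) and kidney (right), with 95% intervals derived from edgeR's fold change and F statistic on 4 against 4 libraries. In ovary the intervals of Inhba, Inhbb and Amh are the widest, and those of the 3 activin receptors lie within 0.32 of 0. Amh and Amhr2 were not tested in kidney.

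Leaving out PT-2385 replicate 4, as each library was left out in turn, changed the result for *Inhba*. Without it the log2 fold change was 0.91 (SE 0.151, against 0.403 with all libraries) and *Inhba* passed at an edgeR adjusted p of 0.0352 (Benjamini-Hochberg). It was 1 of 9 genes of the system, while 0.326% of all genes passed (60 genes). The library left out was the lowest for *Inhba* itself, so this fit is no independent support for a rise. In the same fit *Inhbb* had a log2 fold change of 0.72 (adjusted p = 0.220), *Inha* 0.37 (0.216) and *Fst* 0.28 (0.306), none of which passed (edgeR, Benjamini-Hochberg). The estimate for *Amh* turned to -0.20 (edgeR adjusted p = 0.845, Benjamini-Hochberg). Leaving out any of the other 7 ovary libraries called 0 of the 9 genes, including vehicle replicate 3, without which 1090 genes (5.9%) were called. Without vehicle replicate 1, the library with *Kap*, the estimate for *Inhba* was 0.49 and that for *Inhbb* 0.35. Without PT-2385 replicate 1, the estimate for *Inha* was 0.17 with an unadjusted p of 0.125 (edgeR), and that for *Fst* 0.093. *Fst* was also lower, at 0.11, without vehicle replicate 2, and the unadjusted p of *Inha* exceeded 0.05 as well without vehicle replicate 1 (0.0717) or 4 (0.0609) or PT-2385 replicate 3 (0.0598).

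**Figure D4:**
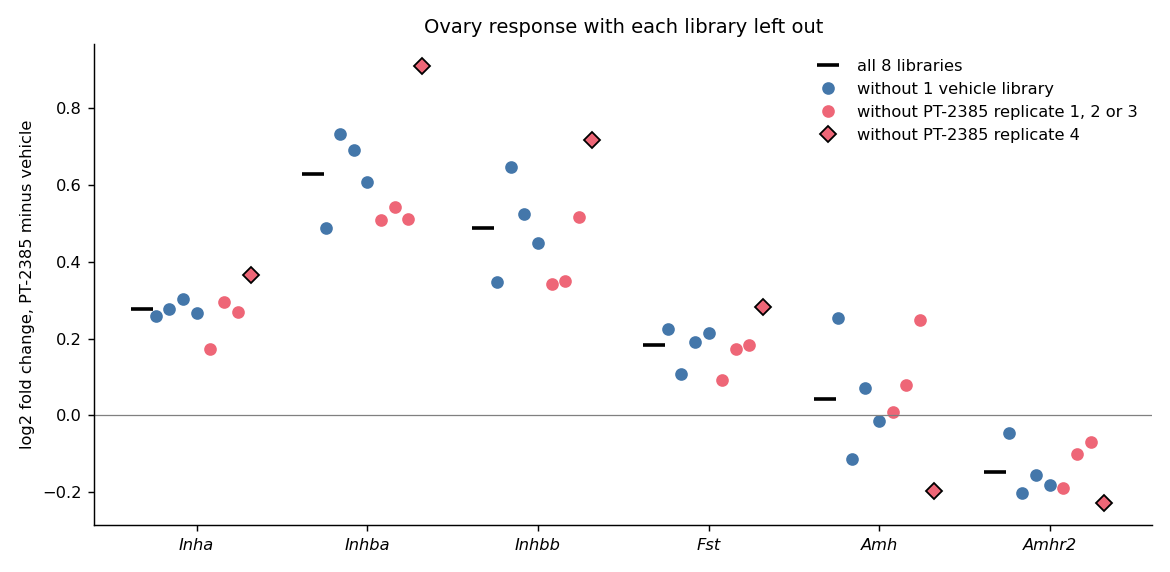
log2 fold change, PT-2385 minus vehicle, in ovary with all 8 libraries (black bar) and with each library left out, for 6 genes. Leaving out PT-2385 replicate 4 (diamond) gives the highest value for Inhba, 0.91, and the lowest for Amh, -0.20.

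PT-2385 replicate 4 also had the lowest summed level of the 10 granulosa cell markers, 1944 CPM against 2187 to 2425 CPM in the other treated libraries and 2130 to 2320 CPM in the controls, with none of the 10 at 0. *Gja1* and *Serpine2* weigh most in this sum. *Serpine2* was at 513 CPM in PT-2385 replicate 4, at 638 to 784 CPM in the other treated libraries and at 482 to 644 CPM in the controls. Among these markers, *Cyp19a1*, the aromatase that makes oestradiol, was at 4.01 CPM in PT-2385 replicate 4 and at 31.3 to 51.5 CPM in the other 3 treated libraries, against 6.76 to 25.0 CPM in the controls. It was singled out after its values were seen, and the rest of the list did not all share its layout. PT-2385 replicate 4 was the lowest of the 8 ovary libraries for 3 of the 10 markers (*Fshr*, *Cyp19a1* and *Hsd17b1*). Among the 4 treated libraries alone, PT-2385 replicate 4 was the lowest for 5 of the 10 markers, these 3 with *Ccnd2* and *Serpine2*. *Gja1*, the most abundant of them, was at 906 CPM there and at 881 CPM in PT-2385 replicate 3, and *Foxl2* was at 82.8 CPM there and at 72.3 to 89.7 CPM in the other treated libraries. The highest *Cyp19a1* library was 12.8 times the lowest, compared with 3.64 times for *Inhba*, 2.72 for *Inhbb* and 1.52 for *Inha*. The 10 oocyte markers together were highest in vehicle replicate 1 (802 CPM) and PT-2385 replicate 4 (723 CPM), and lay between 437 and 614 CPM in the other 6 libraries. These are also the 2 libraries with the least *Inhba* and the most *Amh*. The part of these differences in the results was not tested.

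Across the 8 ovary libraries the β subunits had nearly the same profile. Ordered from the lowest, the first 5 libraries were the same for *Inhba* and *Inhbb*: PT-2385 replicate 4, then vehicle replicates 1, 4, 3 and 2, with PT-2385 replicates 1 to 3 on top. Likeness was measured as the root mean square difference of log2 CPM, each gene centred on its ovary mean, over these 8 libraries and 11332 protein-coding genes of at least 5 CPM. By this measure *Inhbb* was the gene closest to *Inhba* (0.223), and *Inhba* the gene closest to *Inhbb*. The next closest to *Inhba* were *Prrt4* (0.319) and *Fosb* (0.325), a subunit of the AP-1 transcription factor. For *Inhbb* they were *Slc26a7* (0.263), an anion transporter, and *Atf3* (0.276), a stress-induced transcription factor. The 8 libraries share the treatment contrast and differ in depth, so these distances describe these libraries alone.

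The other genes had different neighbours. *Inha* was closest to *Jam3* (0.064), a junctional adhesion molecule, *Pgbd5* (0.0853) and *Fbxl22* (0.0914), while *Inhba* ranked 11129 from it, since *Inha* spans a far narrower range. *Fst* was closest to *Serpine2* (0.0789), a protease inhibitor, *Adam23* (0.0909) and *Zdhhc23* (0.0921), and *Inha* ranked 97 from it. *Amh* lay nearest to *Apoa4* (0.201), *Hsd11b2* (0.218), the enzyme that inactivates corticosterone, and *Sel1l3* (0.241), with its own receptor *Amhr2* at rank 29 (0.310). *Amhr2* lay nearest to *Adamts19* (0.057), *Efr3b* (0.0604) and *Epb41l4b* (0.0759). *Amh* and *Inhba* were far apart (1.00), *Inhba* ranking 11321 of 11332 from *Amh*.

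**Figure D5:**
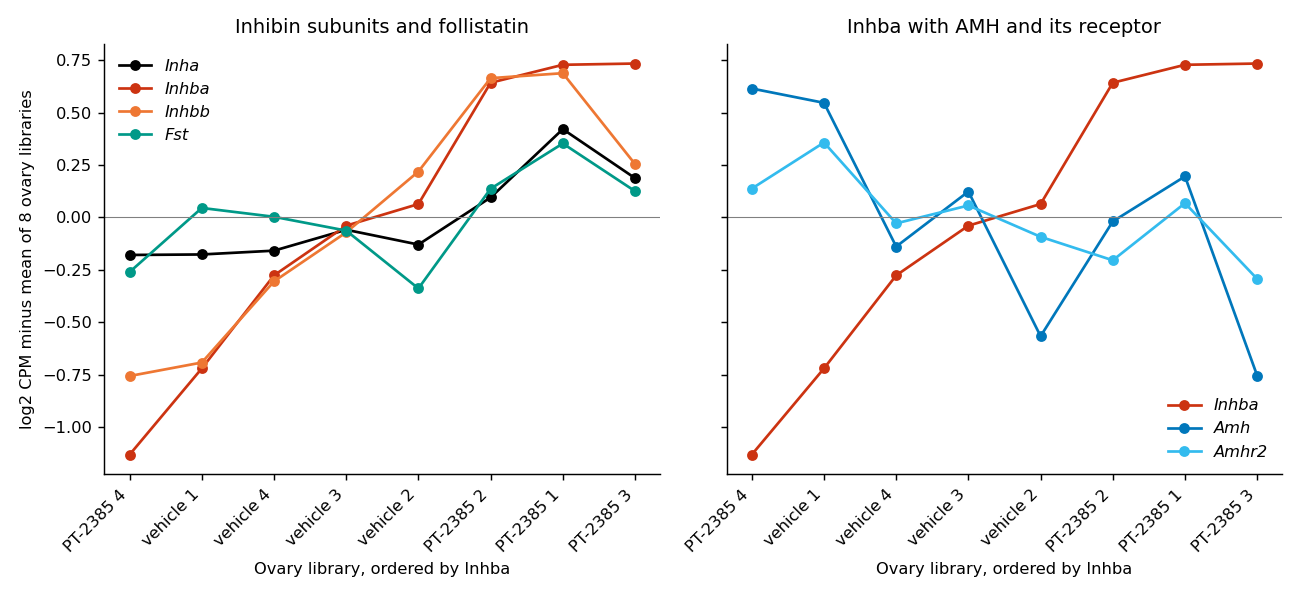
log2 CPM of 6 genes in each ovary library, minus the gene's mean over the 8 libraries, with libraries ordered by Inhba. Left, Inhba and Inhbb climb together from PT-2385 replicate 4 while Inha and Fst span less. Right, Amh is highest in the 2 libraries where Inhba is lowest.

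Ratios within a library, which do not depend on depth, describe the balance of the transcripts. They do depend on the exon length taken for each gene, and protein was not measured. The level per kb of *Inha* over the sum of both β subunits was 13.0, 7.47, 9.01 and 9.90 in the controls and 7.40, 6.13, 7.20 and 15.2 after PT-2385. Treated replicates 1 to 3 lay below all controls and treated replicate 4 above them. The *Inhba* to *Inhbb* ratio stayed near 1 in most libraries, at 0.973, 0.891, 1.01 and 1.01 in the controls and 1.02, 0.978, 1.38 and 0.765 after PT-2385. *Fst* over the sum of the β subunits was 0.922, 0.392, 0.545 and 0.672 in the controls and 0.428, 0.383, 0.419 and 0.872 after PT-2385, so the groups overlapped. The *Amh* to *Amhr2* ratio was between 1.03 and 1.63 in the controls and between 1.04 and 1.99 after PT-2385.

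In kidney, 0 of the 7 genes tested passed, where 5.53% of 17763 genes did (edgeR, Benjamini-Hochberg). At an unadjusted p under 0.05 there were 2 of 7, against 23.1% of all genes. DESeq2 and limma-voom also called 0 of the 7. The median log2 fold change of the 7 was 0.11, against 0.0066 for all genes. The remaining 2 genes, *Amh* and *Amhr2*, had too few counts to test, between 0.0865 and 0.376 CPM and between 0.149 and 0.562 CPM.

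*Fst* came closest to the threshold among the kidney genes. It was at 9.90, 7.89, 11.2 and 9.98 CPM in the controls and at 11.9, 10.5, 12.4 and 12.9 CPM after PT-2385, so treated replicates 1, 3 and 4 lay above all controls and replicate 2 did not. The log2 fold change was 0.31 (SE 0.102, 95% interval 0.094 to 0.53, edgeR adjusted p = 0.0832, Benjamini-Hochberg). *Acvr2b*, a type II activin receptor, was at 8.38, 8.64, 5.95 and 6.70 CPM in the controls and at 4.67, 7.46, 5.61 and 5.53 CPM after PT-2385. All but treated replicate 2 lay below the controls, with a log2 fold change of -0.38 (SE 0.144, 95% interval -0.69 to -0.078, edgeR adjusted p = 0.123, Benjamini-Hochberg). Both passed when no filter on low counts was applied, *Fst* at an adjusted p of 0.0261 and *Acvr2b* at 0.0254, a setting in which 5.21% of all genes passed (edgeR, Benjamini-Hochberg). *Fst* also passed without vehicle replicate 3 (log2 fold change 0.38, edgeR adjusted p = 0.0381, Benjamini-Hochberg), where 7.6% of all genes did.

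The kidney groups did not overlap for 2 genes, *Inhba* upward and *Acvr1b* downward, against 5.37% and 7.89% of all genes. *Inhba* was at 1.33, 1.56, 1.53 and 1.51 CPM in the controls and at 1.73, 2.28, 1.60 and 1.98 CPM after PT-2385, with 29 to 70 counts per library. Its log2 fold change was 0.32 (SE 0.174, 95% interval -0.054 to 0.69, edgeR adjusted p = 0.299, Benjamini-Hochberg). *Acvr1b* was at 73.8, 76.6, 79.3 and 76.1 CPM in the controls and at 70.2, 71.2, 73.6 and 72.6 CPM after PT-2385, a log2 fold change of -0.09 (SE 0.0450, edgeR adjusted p = 0.260, Benjamini-Hochberg). The other 3 overlapped: *Inha* ran from 3.66 to 5.73 CPM (log2 fold change 0.11), *Inhbb* from 1.64 to 2.86 CPM (0.11) and *Acvr2a* from 32.6 to 40.1 CPM (-0.05), with adjusted p of 0.706, 0.774 and 0.723 (edgeR, Benjamini-Hochberg).

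Whether the responses differed between organs was tested over all 16 libraries as the ovary response less the kidney response. None of the 7 genes tested in both organs passed, where 0.19% of 19977 genes did (edgeR interaction term, Benjamini-Hochberg). At an unadjusted p under 0.05 there were 0 of the 7, against 12.0% of all genes. DESeq2 and limma-voom also called 0 of the 7. *Amh* and *Amhr2* had too few kidney counts for a test there and entered this fit through ovary. Their differences are therefore given as values only. The smallest adjusted p was that of *Acvr2b* (difference 0.35, SE 0.201, 95% interval -0.067 to 0.77, edgeR adjusted p = 0.5001, Benjamini-Hochberg). The differences for *Inhba* (0.34, 95% interval -1.27 to 1.95) and *Inhbb* (0.41, 95% interval -0.84 to 1.65) had intervals wide enough to hold a change of either sign. Single libraries moved them by over 1.5 times. Without ovary PT-2385 replicate 4 they were 0.63 and 0.64, and without ovary vehicle replicate 1 they were 0.21 and 0.27. Without ovary PT-2385 replicate 1 they were 0.22 and 0.26. The difference for *Inhba* was 0.18 without ovary PT-2385 replicate 3, and that for *Inhbb* was 0.27 without ovary PT-2385 replicate 2 and 0.25 without kidney vehicle replicate 4. With a library left out, the difference for *Amh* ran from 0.20 (without kidney PT-2385 replicate 1) to 0.72 (without kidney PT-2385 replicate 4), and it was 0.21 without ovary PT-2385 replicate 4 and 0.28 without ovary vehicle replicate 2. For *Amh* (0.44) and *Amhr2* (-0.26) the kidney side rested on at most 11 and 13 counts per library.

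No related gene of the wider pathway passed the test in ovary. Of the lists examined, 0 of 10 ligands tested, 0 of 10 other receptors and co-receptors, 0 of 7 extracellular inhibitors, 0 of 8 SMADs and 0 of 10 gonadal transcription factors and hormone receptors passed in either direction (edgeR, Benjamini-Hochberg). Their median log2 fold changes were -0.02, 0.02, 0.17, -0.06 and 0.04, against -0.0030 for all genes. At an unadjusted p under 0.05 the counts were 2, 3, 2, 2 and 1, against 13.2% of all genes, and 0.0497% of all genes passed after adjustment.

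Among the inhibitors, *Grem1*, a BMP antagonist, was at 4.01, 3.82, 6.09 and 4.78 CPM in the controls and at 13.1, 8.44, 16.6 and 5.08 CPM after PT-2385. Treated replicate 4 was again apart from the other treated libraries, here within the control range (log2 fold change 1.19, SE 0.336, edgeR adjusted p = 0.21, Benjamini-Hochberg). *Tgfbr1*, the type I receptor of TGF-β, was at 438 to 611 CPM in the controls and 610 to 880 CPM after PT-2385 (log2 fold change 0.47, adjusted p = 0.204), and *Acvrl1* had a log2 fold change of -0.26 (adjusted p = 0.297). *Bmp6* (-0.31, adjusted p = 0.200) and *Bmp7* (0.24, 0.279) were the ligands with the smallest p, and *Smad9* (-0.54, 0.200) and *Smad7* (-0.23, 0.284), an inhibitory SMAD, the SMADs. *Foxl2*, a granulosa cell transcription factor, was at 99.6 ± 10.3 CPM in the controls and 81.7 ± 7.15 CPM after PT-2385 (SD, n = 4 each, log2 fold change -0.29, edgeR adjusted p = 0.207, Benjamini-Hochberg). *Nr5a2* had a log2 fold change of 0.25 (edgeR adjusted p = 0.430, Benjamini-Hochberg).

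In kidney, 1 of 10 receptors and co-receptors and 1 of 4 gonadal transcription factors and hormone receptors tested passed, where 5.53% of all genes did, and with so few genes these counts say nothing about either list. *Acvrl1*, a type I receptor of endothelial cells, rose from 28.5 ± 1.30 to 33.9 ± 2.45 CPM (SD, n = 4 each, log2 fold change 0.25, edgeR adjusted p = 0.0323, Benjamini-Hochberg). *Wt1*, which podocytes express, rose from 26.3 ± 2.09 to 31.6 ± 1.02 CPM (SD, n = 4 each, log2 fold change 0.27, edgeR adjusted p = 0.0250, Benjamini-Hochberg). The call for *Acvrl1* was lost under 6 of 16 alternatives and that for *Wt1* under 4 of 16, each with the fit of all 16 libraries and without vehicle replicate 2 or treated replicate 3 or 4, and for *Acvrl1* also without vehicle replicate 1 or treated replicate 2. The summed endothelial markers were 366 to 414 CPM in the controls and 393 to 432 CPM after PT-2385, and their part in these changes was not tested. Of the 45 cell type markers tested in kidney 3 passed (6.67%, against 5.53% of all genes): *Prlr*, *Aldh1a1* and *Csf1r* fell, from 214 to 168, from 8.91 to 6.41 and from 75.1 to 62.2 CPM (edgeR adjusted p = 0.0473, 0.0212 and 0.0251, Benjamini-Hochberg), and lost their calls under 8, 4 and 4 of 16 alternatives. *Csf1r* shared 17.9% of its exon bases with *Hmgxb3* on the opposite strand, and counting used no strand option. None of 9 ligands, 6 inhibitors or 8 SMADs passed (edgeR, Benjamini-Hochberg), with 1, 0 and 1 at an unadjusted p under 0.05 against 23.1% of all genes, the smallest p in each list being those of *Bmp6* (log2 fold change -0.16, adjusted p = 0.0952), *Fstl3* (-0.28, 0.233, with 59.2% of its exon bases shared with *Prss57*) and *Smad4* (-0.12, 0.163).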

How the data were processed

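Bulk polyA RNA sequencing of ovary and kidney was analysed (4 groups of 4 libraries). Per the file headers, the authors counted read pairs over exons per gene with featureCounts 2.0.6 and GENCODE vM27 (basic set), and deposited these counts. FastQC, STAR and build GRCm39 are named per the submitters' processing notes, with tool versions not given in the sources used here. Symbols came from the GENCODE M21 table, which matched 94.1% of identifiers, and promoter windows from RefSeq, which matched 7 of 9 genes.

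Each organ was tested alone with edgeR 4.0.16 (robust quasi-likelihood, R 4.3.3, limma 3.58.1) after TMM scaling and filterByExpr (count 10, total 15), with Benjamini-Hochberg adjustment over all genes tested and 6 residual degrees of freedom. The interaction used all 16 libraries. Levels between genes and organs used TMM over all 16 libraries. The tests were checked on simulated data with 200 genes changed. In ovary 47.8% of 1.5-fold and 70.1% of 2-fold changes were recovered, in kidney 70.1% and 89.6%, and for the interaction 32.8% and 64.2%. Of the calls, 4.73%, 8.99% and 3.17% were false, in the same order. Changes of 1.5-fold could thus often be missed, most of all in ovary and for the interaction.

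Each library was left out in turn. Other alternatives were DESeq2 1.42.0, limma-voom, upper-quartile or median-ratio scaling, levels without TMM, no filter, at least 1 CPM in 4 libraries, a replicate block, and a single model over the 16 libraries.

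The members and lists were chosen with earlier results of these data known. Besides the 9 genes, the text names every called gene of a pathway list (up to 6 per organ) or else 2 or fewer with the smallest p, the 3 genes most alike per member, and Kap, Foxl2 and Zp3 for identity. Called cell type markers are named too. A gene that the rule selects is not reported here.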

Additional observations from a re-analysis of the deposited data

Results flagged for a closer look

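Of 36 groups of 4 libraries checked (9 genes in 4 groups), 2 held a library far from the other 3, where chance gives about 1 in 20 groups. *Inhba* was at 112 CPM in ovary PT-2385 replicate 4, a gap to the nearest of the other treated libraries of 0.915 of the group's range, past Dixon's 95% critical value. *Acvr2b* was at 8.27 CPM in ovary vehicle replicate 4, a gap of 0.921 of the range, also past it, with the other 3 controls between 6.37 and 6.52 CPM.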

How the results depend on the processing

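Members called stayed at 0 in ovary and for the difference between organs under every alternative run, except 1 (*Inhba*) in ovary without PT-2385 replicate 4, and in kidney except 2 without a filter and 1 without vehicle replicate 3 (range 0 to 1 when a library was left out, and 0 to 0 for the difference between organs). Counts over all genes moved far more. In ovary 9 genes became 322 with DESeq2, 4 with limma-voom, 330 with no filter and 325 with 1 fit of all 16 libraries, and 0 to 1090 with a library left out (0 without vehicle replicate 1 or 4 or PT-2385 replicate 2 or 3, 1 without PT-2385 replicate 1, 57 without vehicle replicate 2). In kidney 982 became 1761 with no filter and 286 with 1 fit of all 16 libraries, and 240 to 1370 with a library left out (269 without vehicle replicate 2, and 531, 240 and 287 without PT-2385 replicate 1, 3 and 4). For the difference between organs 38 became 20 with median-ratio scaling, 304 with DESeq2, 12 with limma-voom and 167 with no filter, and 0 to 813 with a library left out (813 without ovary vehicle replicate 3, 0 without ovary PT-2385 replicate 3). The cause was not tested.

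Replicate numbers were not taken to pair the libraries. The deviations of same-numbered libraries correlated at between -0.114 and 0.204 in ovary and between -0.044 and 0.019 in kidney. Between ovary and kidney these correlations were 0.035 to 0.058 in vehicle, where all 4 ovary libraries matched the same-numbered kidney library best, and -0.0097 to 0.064 with PT-2385, where replicates 1 and 4 did. This is a hint from the data, not from the labels. The replicate block gave all libraries of the same number a common term, across treatments. It therefore does not model a match of ovary and kidney within a treatment, which was not tested. With this block, 0 members passed in each of the 3 comparisons, and 395, 1274 and 52 genes passed in ovary, kidney and the difference between organs.

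The difference between organs for *Acvr2a*, 0.0041, turned to -0.028 with upper-quartile scaling, -0.0028 with limma-voom, -0.0081 with no filter and -0.0047 with the stricter filter. With a library left out, the range crossed 0 for *Amh* (-0.20 to 0.25), *Acvr1b* (-0.030 to 0.071) and *Acvr2b* (-0.084 to 0.054) in ovary, for *Inhbb* (-0.010 to 0.26) and *Acvr2a* (-0.083 to 0.020) in kidney, and for *Amhr2* (-0.43 to 0.032) and *Acvr2a* (-0.061 to 0.042) in the difference. Without TMM, *Acvr1b* averaged 42.8 CPM in ovary and 74.1 in kidney, and *Acvr2a* 35.8 CPM in ovary. The low counts of *Amh*, *Amhr2* and *Inhba* in kidney limit what can be seen there.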
